A study of Mus musculus with 7 samples.

Results

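The genes described here were the 3 polypyrimidine tract binding (PTB) protein genes *Ptbp1*, *Ptbp2* and *Ptbp3* and their closest relatives among the heterogeneous nuclear ribonucleoproteins (hnRNPs), *Hnrnpl* and *Hnrnpll*. They were taken by gene symbol from a table of RNA-seq counts that lists 48440 genes. All 5 were among the 20019 genes that passed the filter on low counts, and the lowest count of any of them in a library was 795. The comparison asks how the paralogs behave as the number of intact *Ptbp1* alleles falls.

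PTB proteins bind pyrimidine-rich stretches of pre-mRNA and mostly repress the inclusion of nearby exons. *Ptbp1* is the form found in progenitors and most non-neuronal cells, *Ptbp2* (also called nPTB) is enriched in developing neurons, and *Ptbp3* (also called ROD1) is known from blood-forming cells. Ptbp1 protein causes an exon of *Ptbp2* to be skipped, so that the *Ptbp2* mRNA meets a premature stop codon and is removed by nonsense-mediated decay (NMD), and it regulates its own mRNA in the same way. *Hnrnpl* and *Hnrnpll* (hnRNP L-like, known for the splicing of *Ptprc* in T cells) share the arrangement of RNA recognition motifs with the PTB genes and bind CA-rich RNA.

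Whole retinas were collected from mouse embryos at E16, and RNA was sequenced from 7 pools of 4 to 6 retinas. Every animal carried *Chx10-Cre*, a transgene that expresses Cre recombinase in retinal progenitors. The 1 WT library was labelled Chx10Cre, the 3 Het libraries Chx10-Cre;Ptbp1lox/WT and the 3 KO libraries Chx10-Cre;Ptbp1lox/lox, with 0, 1 and 2 *Ptbp1* alleles that carry loxP sites. These sites flank the promoter and the first exon, and cells in which *Chx10-Cre* is not active keep both parts. No label ties a replicate number to a litter, and the labels name TRIzol for the RNA extraction whereas the study's methods name a column kit.

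Library totals ranged from 120593979 to 171117305 counts. The progenitor markers that define the tissue were present in all 7 libraries, with *Lhx2* at 276 to 305, *Pax6* at 514 to 580.5 and *Rax* at 154 to 171 CPM (library-size-scaled counts after TMM normalization). Het1 stood apart by markers of tissue around the retina, with 531 CPM summed over pigment cell markers against 21.1 to 64.6 in the other libraries, and 421.5 CPM over mesenchyme markers against 15.9 to 55.4. The WT group had 1 library and so no error of its own, and in the fits it was assumed to vary like the Het and KO libraries. The pools were the unit of replication, and in bulk tissue fewer cells of a type and less RNA per cell cannot be told apart.

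The 5 genes lie on different chromosomes of GRCm38. *Ptbp1* (ENSMUSG00000006498.16) is at chr10:79854427-79864771 on the plus strand, *Ptbp2* (ENSMUSG00000028134.11) at chr3:119718742-119784466 on the minus strand, and *Ptbp3* (ENSMUSG00000028382.15) at chr4:59471868-59549364 on the minus strand. *Hnrnpl* (ENSMUSG00000015165.16) is at chr7:28808541-28822266 on the plus strand and *Hnrnpll* (ENSMUSG00000024095.15) at chr17:80029487-80062334 on the minus strand. The coding sequences were 69.3% to 72.4% identical between pairs of PTB genes, 63.2% between *Hnrnpl* and *Hnrnpll*, and 50.6% to 58.6% across the 2 branches. No stretch of 50 bases of a member's main coding transcript occurred in another member, so reads of that length are not shared among them.

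The 3 PTB genes carry a homologous coding exon of 34 bases, shown because it is the exon through which PTB proteins act on *Ptbp1* and *Ptbp2* mRNA. Its length leaves 1 base over whole codons, so that skipping it shifts the reading frame. Capitals mark the 19 bases that are the same in all 3 genes.
Ptbp1, chr10:79862014-79862047, plus strand, exon 10 of 14: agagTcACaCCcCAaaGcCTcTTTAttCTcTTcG
Ptbp2, chr3:119724612-119724645, minus strand, exon 10 of 14: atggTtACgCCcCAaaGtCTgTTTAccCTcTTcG
Ptbp3, chr4:59485339-59485372, minus strand, exon 11 of 15: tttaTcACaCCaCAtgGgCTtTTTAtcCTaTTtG
The *Ptbp2* exon matched that of *Ptbp1* at 26 positions and the *Ptbp3* exon at 22. In the GENCODE annotation the exon was skipped in 2 of 2 NMD transcripts of *Ptbp1* that span it and in 2 of 2 of *Ptbp2*, but not in the 1 such transcript of *Ptbp3*. *Hnrnpl* and *Hnrnpll* each have an exon found only in an NMD transcript, of 70 and 83 bases. Counts were made per gene, so productive and NMD transcripts were not separated in any value given here.

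*Ptbp1*, the targeted gene, was lower with each loxP allele. Its count was 56666 in WT, 35733, 26046 and 35480 in Het1 to Het3, and 3697, 795 and 6248 in KO1 to KO3. On the CPM scale these were 381 in WT, 210.3, 219 and 234 in Het, and 27.9, 6.04 and 46.9 in KO. The 3 genotypes did not overlap (36.3% of genes tested had no overlap of Het and KO), with Het at 58.0% and KO at 7.07% of WT on average.

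Het averaged 221 ± 11.9 CPM and KO 26.95 ± 20.5 CPM (SD over 3 libraries each). The log2 fold change between KO and Het was -3.04 ± 0.635 (SE), with a 95% confidence interval of -4.55 to -1.52 and an adjusted p of 0.0316 by edgeR's quasi-likelihood test. *Ptbp1* was therefore called, as were 7.22% of the genes tested (3.21% lower in KO). A gene was called at an adjusted p below 0.05 and a change of over 1.2-fold. The call did not hold with fewer libraries in most cases: without Het1, Het2, Het3 or KO1 the edgeR adjusted p was 0.0519, 0.0964, 0.0934 and 0.0744, with log2 fold changes of -3.07, -3.04, -2.99 and -3.06. It was called without KO2 (-2.56) and without KO3 (-3.70). Between Het and WT the log2 fold change was -0.79 with an interval of -2.67 to 1.1 and an edgeR adjusted p of 1. This interval uses the spread estimated over all genotypes, KO included.

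**Figure D1:**
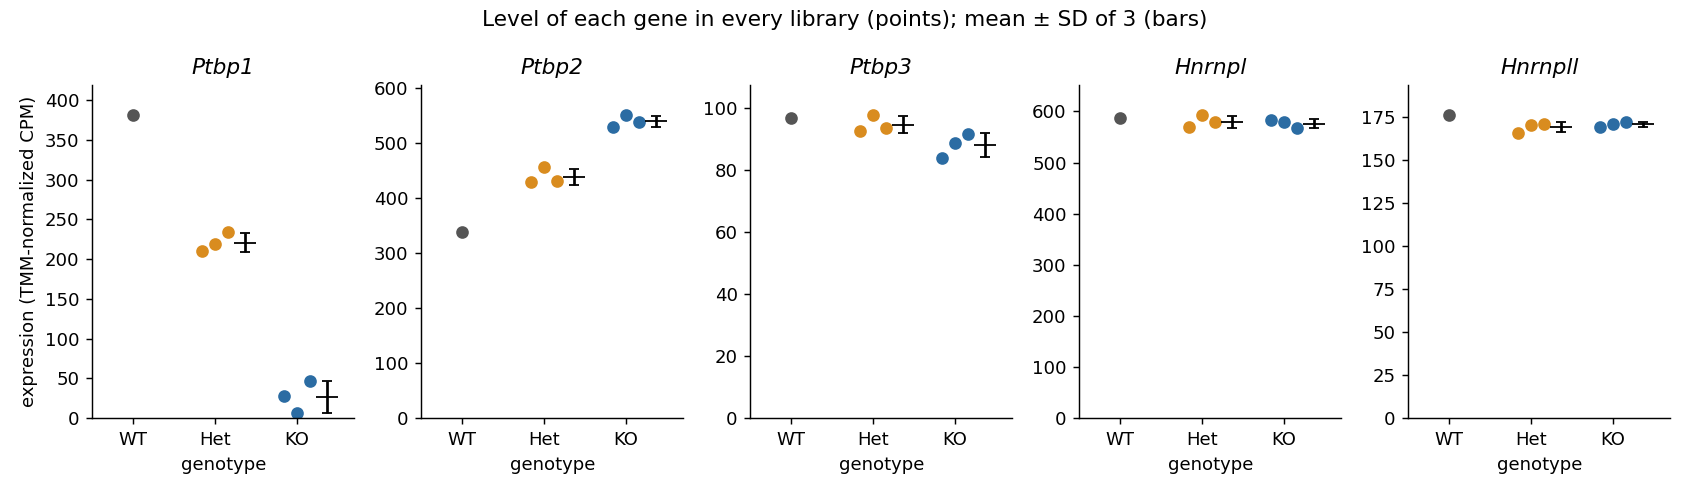
TMM-normalized CPM (vertical axes, each from 0) of the 5 genes by genotype, with 1 point per library and the mean ± SD of 3 libraries beside the Het and KO points. *Ptbp1* steps down and *Ptbp2* steps up from WT over Het to KO with no overlap, while the levels of *Hnrnpl* and *Hnrnpll* overlap between Het and KO.

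The residual *Ptbp1* level differed 7.76-fold between the KO libraries, from 6.04 CPM in KO2 to 46.9 CPM in KO3. Markers of tissues outside the neural retina also differed between these libraries. Summed over 6 erythroid markers they were 36.6, 24.0 and 297 CPM in KO1 to KO3, against 187 to 526 in Het and 337.5 in WT. Over 6 markers of pigment cells they were 27.7, 21.1 and 61.5 CPM, against 32.2 to 531 in Het and 34.6 in WT, with *Rpe65* at 3 counts or fewer in every library. Over 7 mesenchyme markers they were 15.9, 19.0 and 55.4 CPM, against 23.4 to 421.5 in Het and 18.6 in WT. KO3 was the highest KO library in these 3 sums, as it was for *Ptbp1*, and also over 7 lens markers (2.51, 6.16 and 50.6 CPM in KO1 to KO3). Over 8 microglia markers the sums were 71.6, 96.5 and 83.7 CPM, highest in KO2, where *Ptbp1* was lowest. Over 10 endothelial and pericyte markers the sum was 859, 786 and 835 CPM in KO1 to KO3 and 761 to 893.5 CPM in Het. This sum did not follow the order of *Ptbp1*. *Kdr*, its largest part in every library, was called higher in KO (log2 fold change 0.44), as were 4.01% of genes tested. The median log2 fold change of the list was -0.81. *Pdgfrb* (-0.41) and *Col4a2* (-0.47) were called lower, as were 3.21% of genes tested, and *Cldn5* (0.23) was higher but not called. Of these 10 genes, 7 followed the order of *Ptbp1* in KO1 to KO3, with *Pecam1* (0.823, 0.54 and 3.05 CPM) and *Cdh5* (0.989, 0.555 and 4.41 CPM) among them, and *Kdr*, *Col4a1* and *Col4a2* did not. The same order was found in 4 of 6 erythroid, 5 of 6 pigment cell, 4 of 7 mesenchyme and 2 of 7 lens markers. It was found in 0 of 8 microglia, 0 of 6 skeletal muscle, 0 of 12 neuron and 0 of 11 progenitor markers. Its share over all genes tested was not counted. The part of cells from outside the neural retina in the residual *Ptbp1* level was not tested.

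*Ptbp1* shares its first exon with a gene on the other strand. *E130317F20Rik* (ENSMUSG00000091994.1) is annotated as a bidirectional promoter lncRNA at chr10:79851381-79854971, and its exons cover all 295 bases of the first exon from which 10 of the 16 *Ptbp1* transcripts start, 4 of them protein-coding (chr10:79854427-79854721). The other 6 *Ptbp1* transcripts, 2 of them protein-coding, start downstream of that exon. The 250 bases before the RefSeq start of *Ptbp1* (GRCm38.p6, chr10:79854182-79854431, plus strand), shown because the loxP sites flank the promoter, hold no GC box (GGGCGG or its reverse complement, which 32.7% of 32851 promoters of this length hold) and 17 CG dinucleotides, against a median of 6.
Ptbp1 promoter: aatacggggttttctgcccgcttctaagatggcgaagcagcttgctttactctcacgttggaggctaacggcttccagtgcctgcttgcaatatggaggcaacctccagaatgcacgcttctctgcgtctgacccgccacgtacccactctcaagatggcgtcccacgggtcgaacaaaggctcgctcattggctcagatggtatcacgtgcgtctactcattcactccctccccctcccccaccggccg

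The level of *E130317F20Rik* followed that of *Ptbp1*. Its counts were 2177 in WT, 1406, 1014 and 1327 in Het, and 145, 63 and 162 in KO, or 14.6, 8.28, 8.51, 8.74, 1.09, 0.479 and 1.22 CPM. Het was at 58.1% and KO at 6.35% of WT, and the 3 genotypes did not overlap (17.7% of genes tested had every KO library below every Het library). The log2 fold change between KO and Het was -3.19 ± 0.326 (SE, edgeR adjusted p = 0.00556). The lncRNA was called in all 13 alternatives and left-out libraries tried. Of these, the setting by adjusted p alone is the main fit without the fold limit and could not lose a call. Whether the counting used strand is not given in the sources used here, so reads of the shared exon cannot be assigned to either gene from these counts.

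*Plppr3*, which overlaps the other end of *Ptbp1* by 251 exon bases on the opposite strand, was at 162 CPM in WT, 175, 172 and 169.6 in Het, and 154, 158 and 137 in KO. The KO libraries lay below the Het libraries, as in 17.7% of genes tested. The log2 fold change of *Plppr3* was -0.20 (edgeR adjusted p = 0.0644), and the gene was not called. Of the 5 tested genes on each side of *Ptbp1*, 1 of 10 was called (7.22% of all genes were), and that was *E130317F20Rik*. Of the 50-base stretches of the *Ptbp1* transcript, 8.04% also occur in the processed pseudogene *Gm4900* and 0.425% in *Gm18815*, so a share of reads could have mapped to several places.

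**Figure D2:**
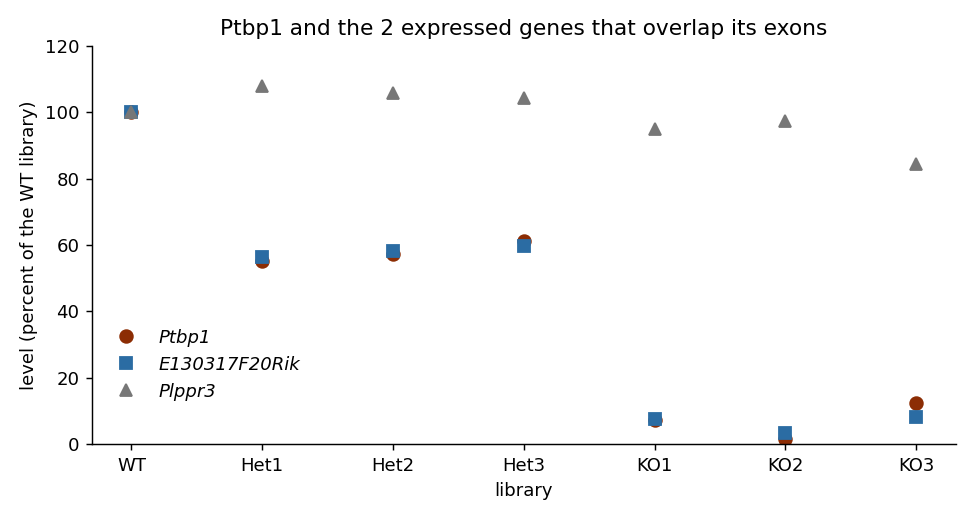
Level of *Ptbp1*, the overlapping opposite-strand lncRNA *E130317F20Rik* and *Plppr3* in each of the 7 libraries (horizontal axis), as percent of the WT library (vertical axis). *Ptbp1* and *E130317F20Rik* lie close together at 55.2% to 61.4% in Het and at 1.58% to 12.3% in KO, whereas *Plppr3* lies between 84.4% and 108% throughout.

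*Ptbp2* rose as *Ptbp1* fell. Its count was 50322 in WT, 72753, 54246 and 65294 in Het, and 70143, 72351 and 71632 in KO, or 338 CPM in WT, 428, 455 and 430.3 CPM in Het, and 529, 549.8 and 538 CPM in KO. Every Het library lay above WT and every KO library above every Het library. This order was found in 4.72% of the genes tested.

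Het averaged 438 ± 15.1 CPM and KO 539 ± 10.3 CPM (SD over 3 libraries each), which is 129% and 159% of WT. KO exceeded Het 1.23-fold, with a log2 fold change of 0.30 ± 0.0374 (SE) and a 95% confidence interval of 0.21 to 0.389 (edgeR adjusted p = 0.00831). *Ptbp2* was called, as were 4.01% of the genes in this direction, and it was the 280th gene of 20019 by p. It was called under all 13 alternatives and left-out libraries, with log2 fold changes of 0.28 to 0.33. Among these, adjusted p alone reuses the main fit, so the call could not be lost there.

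*Ptbp2* also stood higher in every Het library than in the WT library. Between Het and WT the log2 fold change of *Ptbp2* was 0.37 with an interval of 0.243 to 0.501, and it ranked 10th of 20019 genes by p, but the edgeR adjusted p was 0.538. In this comparison edgeR called 1 gene, or 0.005% of those tested (*Gm9855*, named here after its value was seen), and 682 genes had an unadjusted p below 0.05. DESeq2 called 33 genes, with *Ptbp2* among them (adjusted p = 1.49e-08). The comparisons of Het with WT and of KO with Het share the Het libraries. In CPM, *Ptbp2* gained 99.6 from WT to Het and 101 from Het to KO, while *Ptbp1* changed by -160.1 and -194. The second step of *Ptbp2* minus the first was -0.07 on the log2 scale, with an interval of -0.251 to 0.106 (edgeR adjusted p = 0.715). For *Ptbp1* the same difference was -2.25, with an interval of -5.11 to 0.613 (edgeR adjusted p = 0.49).

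Per loxP allele, fitted over all 7 libraries, the log2 level of *Ptbp2* rose by 0.33 ± 0.0256 (SE), with an interval of 0.267 to 0.386 and an edgeR adjusted p of 0.011. A slope was called at an adjusted p below 0.05, without the fold limit. Slopes were called in 2.39% and rising slopes in 1.46% of the genes tested, and *Ptbp2* ranked 4th of 20019 by p. The edgeR adjusted p was 0.053 without KO1 and 0.1 without KO2, with slopes of 0.34 and 0.32. Between KO and WT the log2 fold change was 0.67, with an interval of 0.54 to 0.803 (edgeR adjusted p = 0.00693, called as were 2.48% of the genes tested, with 1.16% higher and 1.31% lower in KO). The slope of *Ptbp1* was -2.30 per allele and its change between KO and WT -3.82, and neither was called by edgeR (adjusted p = 0.0596 and 0.055).

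The rise of *Ptbp2*, a gene enriched in neurons, was set beside markers of neurons and progenitors. Summed over 12 markers of postmitotic neurons the level was 5811 to 6073 CPM in Het and 5076 to 5705 CPM in KO, against 5804 CPM in WT. Without *Tubb3* the sums overlapped, at 4109 to 4326 CPM in Het and 3836 to 4257 CPM in KO. Of these markers 1 was called higher in KO (*Map2*), as were 4.01% of genes tested. Called lower were 3 (*Elavl4*, *Gap43* and *Tubb3*), as were 3.21% of genes tested. The median log2 fold change of the 12 markers was -0.06. Summed over 11 progenitor markers the level was 6338 to 6632 CPM in Het and 6228 to 6444 CPM in KO. Of these 11 markers 0 were called higher and 2 lower (*Sfrp2* and *Fgf15*), beside the same shares of all genes. The part of cell composition in the *Ptbp2* rise was not tested. None of the 10 tested genes nearest to *Ptbp2* was called (7.22% of all genes were), with log2 fold changes of -0.45 to 1.05.

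**Figure D3:**
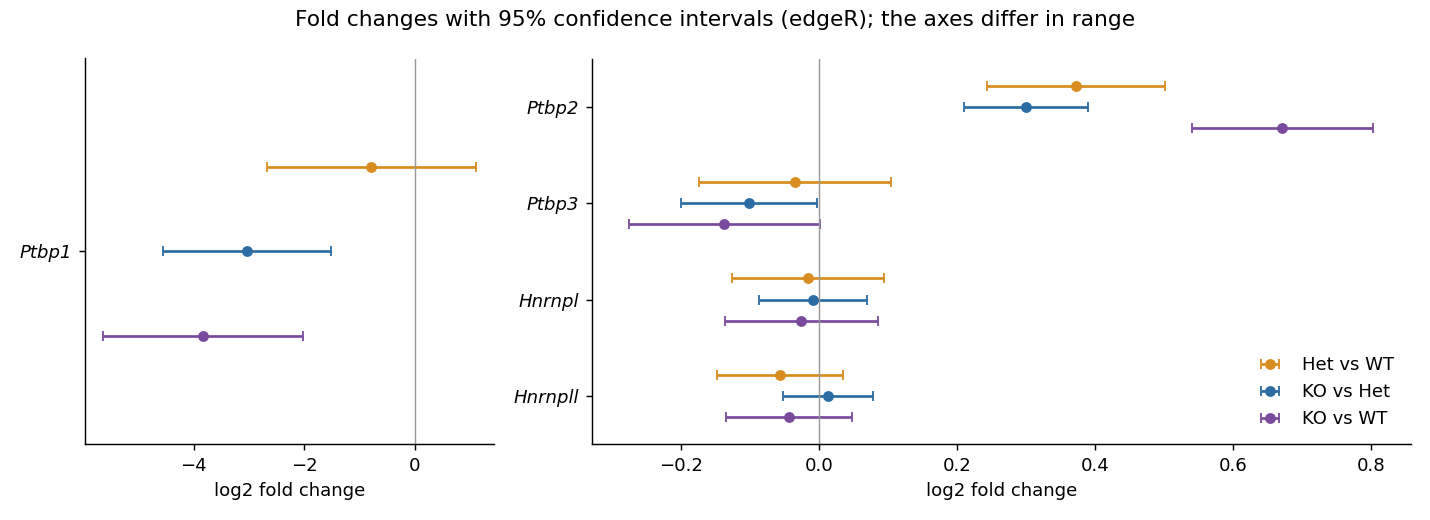
Log2 fold changes (points) of the 5 genes with 95% confidence intervals (bars) from edgeR for Het against WT, KO against Het and KO against WT, on horizontal axes of different range for *Ptbp1* and the other genes. All 3 intervals of *Ptbp2* lie above 0, and those of *Hnrnpl* and *Hnrnpll* include 0.

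*Ptbp3* was lower in KO than in Het by a small margin. Its counts were 14434 in WT, 15745, 11653 and 14223 in Het, and 11139, 11691 and 12231 in KO, or 97.1 CPM in WT, 92.7, 97.8 and 93.7 in Het, and 84.0, 88.8 and 91.8 in KO. Het and WT overlapped, and the 3 KO libraries lay below the 3 Het libraries, a separation in this direction that 17.7% of genes had. The log2 fold change was -0.10 with an interval of -0.201 to -0.00403 (edgeR adjusted p = 0.156), so *Ptbp3* was not called. In percent this interval runs from -13% to -0.279%. Against WT the KO libraries differed by -0.14 on the log2 scale (interval -0.276 to 0.00053), and the slope per loxP allele was -0.08 (interval -0.141 to -0.0137, edgeR adjusted p = 0.134).

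*Hnrnpl* was at 587 CPM in WT, 569, 593 and 578 CPM in Het, and 583, 578 and 567 CPM in KO. *Hnrnpll* was at 176 CPM in WT, 166, 171 and 171 CPM in Het, and 169.5, 171 and 172 CPM in KO. Het and KO overlapped for both genes. The log2 fold changes between KO and Het were -0.01 for *Hnrnpl* (edgeR adjusted p = 0.874) and 0.01 for *Hnrnpll* (edgeR adjusted p = 0.785). Their intervals allow a change of -5.88% to 4.9% for *Hnrnpl* and of -3.56% to 5.52% for *Hnrnpll*, both short of the 15.7% to 30.9% rise that the interval of *Ptbp2* spans. Against WT the KO intervals were -9.03% to 6.02% and -8.97% to 3.34%. Of the 10 tested genes nearest to *Hnrnpl*, 2 were called, and of those nearest to *Ptbp3* and *Hnrnpll* none was (7.22% of all genes were). The 2 were *Ccer2* (log2 fold change -0.99) and *Lgals7* (log2 fold change -1.08), both at low levels. *Ccer2* was at 4.63 to 5.67 CPM in Het and *Lgals7* at 2.25 to 2.58 CPM.

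A ratio of 2 counts in the same library does not depend on how libraries are scaled, so the 10 pairs of members were also compared as log2 ratios. *Ptbp2* to *Ptbp1* was -0.17 in WT, 1.03, 1.06 and 0.88 in Het, and 4.25, 6.51 and 3.52 in KO. *Ptbp3* to *Ptbp2* was -1.80 in WT, -2.21, -2.22 and -2.20 in Het, and -2.65, -2.63 and -2.55 in KO, a difference of -0.40 between KO and Het. *Hnrnpl* to *Ptbp2* fell outside the Het range in the same way, with a difference of -0.31. *Hnrnpl* to *Ptbp3* differed by 0.09 and *Hnrnpll* to *Ptbp3* by 0.12 without overlap. The exact permutation test gave p = 0.1 for 9 of the pairs, the smallest that 3 libraries against 3 can give, and 0.111 after adjustment over the 10 pairs. *Hnrnpll* to *Hnrnpl* overlapped between the groups, with a difference of 0.02 (exact p = 0.5).

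Levels of different genes were compared per kb of exon. With the union of all annotated exons as length, the order in WT was *Hnrnpl* (98.6 CPM per kb), *Ptbp1* (80.4), *Ptbp2* (36.9), *Hnrnpll* (15.1) and *Ptbp3* (12.98). In Het, *Ptbp1* at 46.6 ± 2.51 and *Ptbp2* at 47.7 ± 1.64 CPM per kb (SD, n = 3) did not differ beyond their spread. Per kb of the longest coding transcript, *Ptbp2* lay above *Ptbp1* in every Het library, at 113 to 121 against 66.4 to 73.8 CPM per kb. In KO, *Ptbp1* at 5.68 ± 4.31 CPM per kb was the lowest of the 5, and *Ptbp2* at 58.7 ± 1.13 was second to *Hnrnpl* at 96.8 ± 1.38 (SD, n = 3). Per kb of the longest coding transcript the *Ptbp1* level of KO3, 14.8 CPM per kb, was above the *Ptbp3* range of 12.3 to 13.4 in KO, so the order of these 2 genes depends on the length.

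The makeup of the PTB transcripts moved from *Ptbp1* to *Ptbp2*. Of the level per kb summed over the 3 PTB genes, *Ptbp1* held 61.7% in WT, 42.9%, 42.4% and 45.4% in Het, and 7.87%, 1.74% and 12.2% in KO. *Ptbp2* held 28.3% in WT, 45.1%, 45.6% and 43.1% in Het, and 77.1%, 82.0% and 72.5% in KO. *Ptbp3* held 9.96% in WT, 11.8% ± 0.275 (SD, n = 3) in Het and 15.5% ± 0.667 (SD, n = 3) in KO. Het and KO did not overlap in any of these shares, and the exact permutation test gave p = 0.1 for each, the smallest it can give. The sum holds *Ptbp1*, so its loss alone raises the shares of *Ptbp2* and *Ptbp3*. The share of *Ptbp3* was higher in KO although its level was lower, at 88.2 CPM against 94.7 CPM in Het. The test of the shares therefore does not show a change in the level of either gene.

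The sum itself was lower with each loxP allele. It was 130.3 CPM per kb in WT, 103, 109 and 109 in Het, and 74.8, 73.1 and 80.8 in KO, so that Het had 82.2% and KO 58.5% of the WT sum. The rise of *Ptbp2* per kb came to 32.1% of the loss of *Ptbp1* from WT to Het and to 26.9% from Het to KO. These values depend on the length used. Per kb of the longest coding transcript, which is 3777 bases for *Ptbp2* in place of a union of 9175 bases, *Ptbp2* held 40.0% in WT, 58.1% in Het and 87.0% in KO, the sum was 89.1% of WT in Het and 73.2% in KO, and the *Ptbp2* rise came to 52.2% and 43.7% of the *Ptbp1* loss. With either length every Het library lay below WT and every KO library below every Het library.

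**Figure D4:**
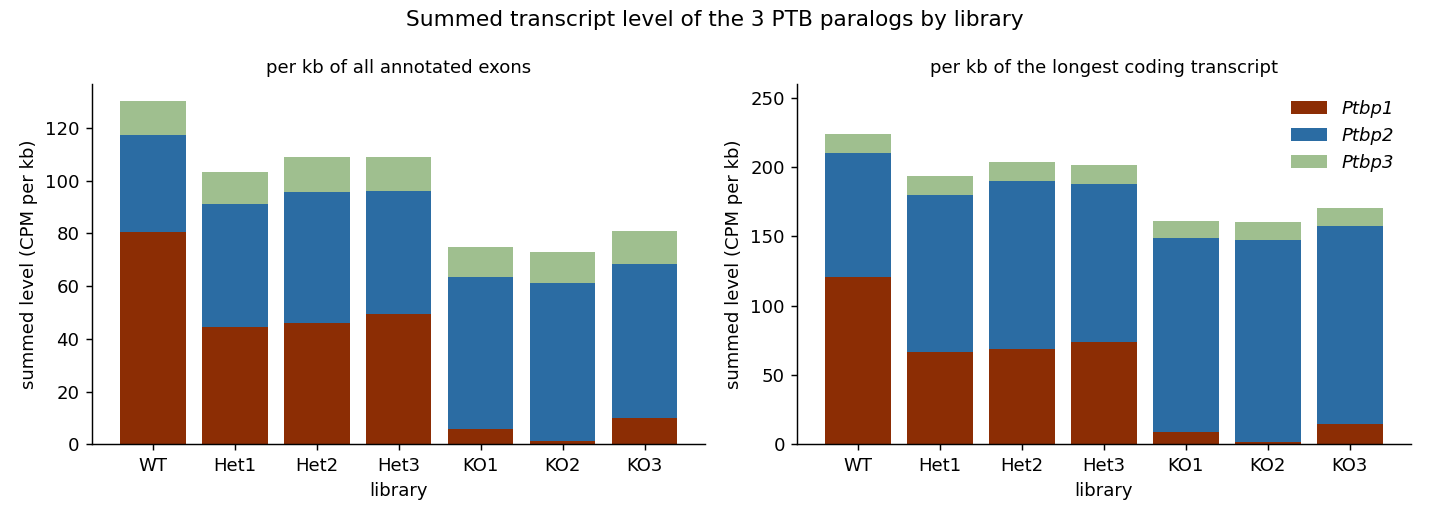
Summed level of *Ptbp1*, *Ptbp2* and *Ptbp3* in CPM per kb (stacked bars, vertical axis) in each of the 7 libraries, per kb of all annotated exons (left) and of the longest coding transcript (right). The *Ptbp1* part shrinks and the *Ptbp2* part grows from WT over Het to KO, and the whole bar is lowest in the KO libraries, at 58.5% (left) and 73.2% (right) of WT.

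Proteins that work with PTB were measured next. Raver1 and Raver2 are corepressors of PTB, Matr3 binds PTB and shares target exons with it, Sfpq, Nono and Pspc1 are paraspeckle proteins, and Khsrp binds splicing enhancers beside PTB. Of these 7 genes none was called (7.22% of all genes were), with a median log2 fold change of -0.07 against -0.0047 over all genes tested. *Raver2* was at 49.9 CPM in WT, 46.3, 50.3 and 54.2 in Het, and 36.1, 41.0 and 43.8 in KO. The KO libraries lay below the Het libraries, as in 17.7% of genes tested. The log2 fold change of *Raver2* was -0.32 (edgeR adjusted p = 0.059), while DESeq2 gave an adjusted p of 0.00231 and called it. *Sfpq*, the most abundant of the list, was at 920.1 CPM in Het and 936.5 CPM in KO.

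Of 21 other hnRNP and poly(C)-binding genes none was called, where 7.22% of all genes were, and their median log2 fold change was -0.04. Het and KO did not overlap in 6 of the 21, as in 36.3% of genes tested. *Hnrnpa1*, the most abundant, was at 1704, 1794 and 1678 CPM in Het and 1555, 1483 and 1478 CPM in KO, without overlap. KO lay below Het in this way in 17.7% of genes tested. The log2 fold change of *Hnrnpa1*, -0.20 (edgeR adjusted p = 0.0397), was short of the 1.2-fold limit. *Hnrnph3*, the least abundant, was at 127 CPM in both groups.

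The 15 NMD factors, whose pathway removes transcripts that skip the 34-base exon of *Ptbp1* or *Ptbp2*, had none called (7.22% of all genes were), and 12 of the 15 were higher in KO, as were 49.0% of all genes (median log2 fold change 0.05). *Upf1*, the central helicase of NMD, was at 132, 132.5 and 140.2 CPM in Het and 157, 158 and 145.5 CPM in KO. Its log2 fold change of 0.19 (edgeR adjusted p = 0.0436) was short of the 1.2-fold limit. *Magohb*, the least abundant of the list, was at 9.45 CPM in Het and 9.47 CPM in KO.

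The microRNA miR-124 represses *Ptbp1* mRNA in neurons and is itself made from several host transcripts, of which 2 were in the table. *Mir124a-1hg* was at 15.6 CPM in WT, 10.8, 9.36 and 9.52 in Het, and 14.1, 20.97 and 20.5 in KO. It rose between Het and KO (log2 fold change 0.91 ± 0.156 SE, edgeR adjusted p = 0.0189), with the WT value inside the KO range, and it was not called without Het2, Het3 or KO2. *Mir124-2hg* was at 97.7 CPM in WT, 69.5 to 78.1 in Het and 61.3 to 88.7 in KO (log2 fold change 0.05, edgeR adjusted p = 0.832). Het and KO did not overlap for *Mir124a-1hg*, where KO lay above Het as in 18.6% of genes tested. Het and KO overlapped for *Mir124-2hg*, and in both genes the WT library lay above the Het libraries.

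**Figure D5:**
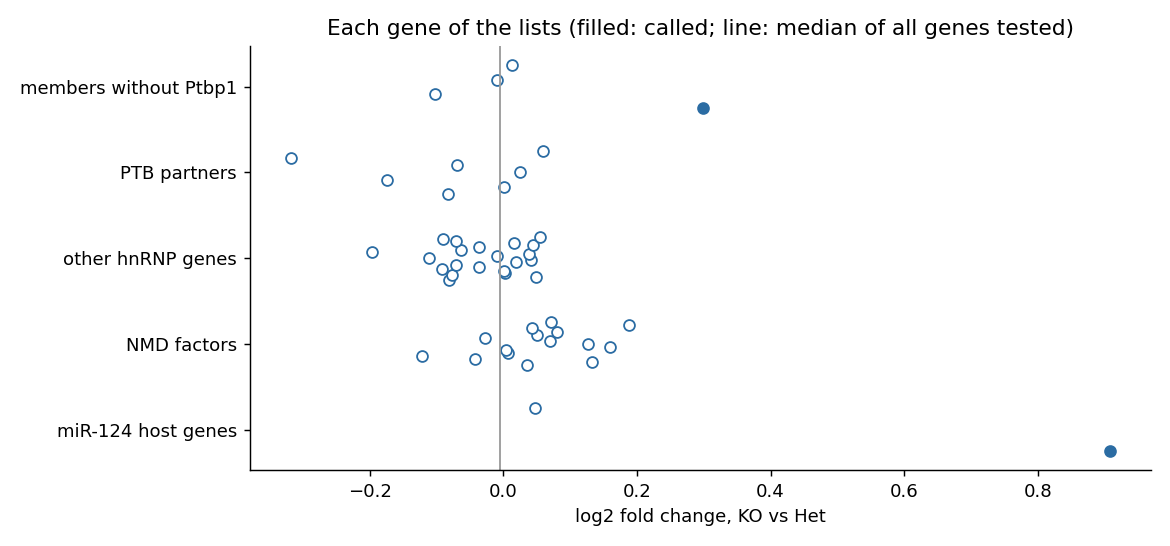
Log2 fold change between KO and Het (horizontal axis) of each gene in 5 groups (rows), with filled points for called genes and a line at the median of all genes tested. *Ptbp1*, also called, is left out of the plot for its size (-3.04). *Ptbp2* (0.30) and *Mir124a-1hg* (0.91) are the filled points, and the PTB partners, other hnRNP genes and NMD factors have none.

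The genes whose levels over the 7 libraries were most like those of the 2 genes that changed were ranked by Pearson's r of log2(CPM + 1) among 13750 genes with a mean of at least 1 CPM. This is a description over 7 points that fall into 3 genotypes, and a like order of the libraries comes with the choice by r. For *Ptbp1* they were *Gtf2e1* (r = 0.991), *Gpatch1* (0.988), *Iqcb1* (0.987), *Mut* (0.986) and *1700086O06Rik* (0.984). *Gtf2e1* was at 55.8 CPM in WT, 53.2 to 53.7 in Het and 44.5 to 49.1 in KO, and like *Ptbp1* was lowest in KO2 and highest of the KO libraries in KO3. *E130317F20Rik* had an r of 0.962 and came after 47 other genes.

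For *Ptbp2* the most alike were *Fosl1* (r = 0.995), *Klhl5* (0.984), *Tas1r3* (0.982), *Zfp738* (0.979) and *Il4ra* (0.976). *Klhl5* was at 26.6 CPM in WT, 30.6 to 31.7 in Het and 35.6 to 36.2 in KO. *Fosl1* was at 3.20 CPM in WT, 3.60 to 3.82 in Het and 4.05 to 4.18 in KO. The WT library was the lowest and the KO libraries the highest in all 5 genes, as in *Ptbp2*, which follows from how they were chosen. None of these 5 genes was called between KO and Het, and none of the 5 named for *Ptbp1* was (7.22% of all genes were). *Klhl5*, *Iqcb1*, *Gtf2e1* and *Mut* had edgeR adjusted p of 0.0133, 0.0274, 0.0296 and 0.0304. Their log2 fold changes of 0.20, -0.21, -0.19 and -0.22 were short of the 1.2-fold limit.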

How the data were processed

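Per the study's methods, the authors ran rMATS-turbo, whose STAR step aligned the stranded mRNA reads to GRCm38 (mm10, GENCODE M10), and obtained counts per gene with featureCounts. The deposited values are these counts, whole numbers without normalization. Tool versions, the strand setting and the handling of reads with several alignments are not given in the sources used here, so counts of overlapping genes and pseudogenes are uncertain. All 48440 rows name a gene.

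The counts were fitted with edgeR 4.0.16 (R 4.3.3): filterByExpr on genotype (20019 genes), TMM, and a quasi-likelihood test over all 7 libraries with a mean per genotype, or with the number of loxP alleles as a number. Benjamini-Hochberg adjustment covered all genes tested. Genes varied by 21.5% between pools beyond counting noise (common dispersion 0.046). The SE is the size of a log2 fold change over the square root of F, and intervals are at 95%. DESeq2 1.42.0 was an alternative. Scripts were tested on simulated data. Single values were compared by exact permutation tests, two-sided. Ratios had 0.5 added to each count.

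The genes named are the 5 members, called and extreme genes of each list, overlapping genes, called genes among the nearest 10, and the 5 most alike. *Raver2*, *Upf1*, the marker genes named and the test of the difference between steps were chosen after values were seen. The members and lists were chosen with earlier results of these data known. Coordinates and lengths come from GENCODE M21, which placed 19951 of the tested genes, and the promoter from RefSeq, whose table matched 3 of the 5 members by symbol. The labels' replicates are separate pools, and p-values measure the spread between pools. The results for 2 single genes of the lists are not reported here.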

Additional observations from a re-analysis of the deposited data

How the results depend on the processing

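Of 200 alternative values of the members' fold changes and slopes, 183 kept their direction and their side of the threshold. Not all are separate tests. The values by adjusted p alone are those of the main fit. The slopes without WT repeat the KO against Het changes from the Het and KO libraries alone, so they do not test dose separately. DESeq2 called *Ptbp2* between Het and WT (log2 fold change 0.37), *Ptbp1* between KO and WT (-3.82) and the *Ptbp1* slope (-2.32), as did fits with no filter (*Ptbp1*, KO against WT, -3.82) and without WT (*Ptbp1* slope, -3.03), and without WT the *Hnrnpll* slope turned to 0.0146. The cause was not tested. With 1 library left out in turn, the log2 fold change between KO and Het ranged from -3.70 to -2.56 for *Ptbp1* (call lost without Het1, Het2, Het3 or KO1), from -0.0230 to 0.00654 for *Hnrnpl* and from -0.0015 to 0.0206 for *Hnrnpll*, which crossed 0. The *Ptbp1* change between KO and WT ranged from -4.48 to -3.35 and was called without KO2 or KO3, and the *Ptbp2* slope ranged from 0.32 to 0.34.

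The number of genes called between KO and Het was 1445, 2221 by adjusted p alone, and 386 (without Het2) to 1674 with 1 library left out, 496 without Het3 and 612 without KO2. DESeq2 called 1496 genes in place of 496 between KO and WT, 33 in place of 1 between Het and WT, and 3092 slopes in place of 479. With 1 library left out, 2 to 186 slopes were called. With 1 library left out, 0 to 1 PTB partner, 0 to 1 NMD factor and 0 to 1 miR-124 host gene were called. *Raver2* was called as 1 PTB partner by DESeq2, with the replicate block, with at least 10 counts in every library and without KO3.

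Correlations of the deviations of same-numbered Het and KO pools were -0.197, 0.159 and -0.0739, and those of other pairs ran from -0.304 to 0.262. With 3 pools in each group they cannot show whether pools shared a litter or a batch. With the replicate block the log2 fold change was 0.30 for *Ptbp2* and -3.36 for *Ptbp1*, both still called, and 1268 genes were called.

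Per kb of the longest coding transcript the mean shares were 34.9% for *Ptbp1*, 58.1% for *Ptbp2* and 6.93% for *Ptbp3* in Het, and 87.0% for *Ptbp2* and 7.85% for *Ptbp3* in KO, with sums of 199.5 and 164 CPM per kb. The 5 genes most like *Ptbp1* shared 0 with the 5 taken by Spearman's rho, and 3 with those without WT. By rho 34 genes tied at 1, *Gpatch1* among them, so the 0 depends on which tied genes were taken. For *Ptbp2* both numbers of shared genes were 0.

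Gene-level counts limit these results: they do not separate productive from NMD transcripts or the deleted exon from the rest. WT has no replicate, and 3 libraries against 3 cannot give an exact p below 0.1.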
